A study of Saccharomyces cerevisiae with 48 samples.

Results

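The ribosomal DNA (rDNA) of budding yeast, on chromosome XII, was followed through 24 peak lists. The genes were taken from the RefSeq table of assembly R64 as all 12 genes of biotype rRNA on this chromosome, of 6431 nuclear genes in the table, together with the 15 stretches that lie between or beside them. They were selected on their measured cover in these same lists, above all on the contrast between the log-phase wild-type and sen1 lists, so every value of that contrast is a description. The assembly holds 2 copies of the rDNA repeat, 9137 bp apart, and the cells hold many more, so a peak here stands for all copies together.

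Biotinylated trimethylpsoralen (bTMP) enters under-wound DNA more readily than relaxed DNA, and sequencing of the DNA it marked, after streptavidin pull-down, gave 20 of the lists. The other 4 came from immunoprecipitation of chromatin with an antibody to Rpb1, which is the catalytic large subunit of RNA polymerase II. Each library also had an input, not analysed here. By its title, the study concerned Sen1, Rrm3 and the DNA topology in which replication terminates.

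The strains were wild type (WT), sen1, rrm3 and sen1rrm3, and the labels name no allele beyond these words. All cultures were first grown in YPG. For S phase, the 4 strains were arrested with alpha-factor in YPD and released at 23 °C, and cells were taken 45 to 50 min later for both Rpb1 and bTMP. For log phase, cells spent 2.5 h in YPD, and WT, sen1, rrm3 and sen1rrm3 were joined by top1, sen1top1, rrm3top1 and sen1rrm3top1. For the 32 °C condition, cells spent 1.5 h in YPD at 25 °C and 1 h at 32 °C, and the same 4 strains were joined by top2-1, sen1top2-1, rrm3top2-1 and sen1rrm3top2-1, where top2-1 is a temperature-sensitive allele. Each strain and condition had 1 library, so no value below has a replicate error and no comparison of 2 lists has a test. RRM3 itself held no peak in any rrm3 strain, but it also held none in 3 of the 10 bTMP lists with intact RRM3, all from 32 °C, so this does not mark the strain. TOP1 held none in 3 of the 4 top1 lists and 10.8% cover in sen1rrm3top1.

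In each rDNA repeat RNA polymerase I makes the 35S precursor, which is cut into the 18S, 5.8S and 25S rRNAs, while RNA polymerase III makes the 5S rRNA from the opposite strand. The 35S unit is bounded by external transcribed spacers (ETS) and divided by internal ones (ITS). The non-transcribed spacer NTS2 holds the 35S promoter and a replication origin, and NTS1 holds the barrier where the Fob1 protein stops forks that would meet the polymerase head on. Top1 and Top2 relax supercoils made by this heavy transcription, Rrm3 helps forks past bound proteins such as those of the rDNA, and Sen1 is a helicase that ends transcription of many non-coding RNAs.

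Peak lists are not depth-corrected here, because the read depth is unknown. The bTMP lists fell into 2 kinds by the spacing of their peaks over the whole nuclear genome. In 14 lists the smallest gap between peaks was 156 to 166 bp and the lists covered 6.997% to 11.7% of the genome. In the other 6, namely the 4 S-phase lists and the 32 °C lists of sen1 and sen1rrm3, the smallest gap was 591 to 631 bp and the lists covered 17.5% to 25.9%. These widely spaced lists covered 90.9% to 99.1% of the rDNA and the narrowly spaced ones 4.53% to 90.1%, so spacing moved with rDNA cover and its part in it was not tested. The 32 °C lists of sen1rrm3 and sen1 were also the nearest of 190 list pairs to the S-phase lists of the same strains, with a Jaccard index (base pairs covered in both lists over those covered in either) of 0.761 and 0.656.

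Most bTMP lists placed peaks over much of the repeat, and a few log-phase lists did not. Cover of the repeats, from the 3' end of the first 35S unit to the end of the second 5S gene (17357 bp), had a median of 72.4% over the 20 lists. In S phase it was 99.1% in WT, 99.0% in sen1, 91.7% in rrm3 and 91.4% in sen1rrm3. In log phase it was 81.5% in WT, 4.53% in sen1, 62.8% in rrm3 and 90.1% in sen1rrm3. With top1 in log phase it was 14.1% in top1, 49.2% in sen1top1, 87.4% in rrm3top1 and 18.01% in sen1rrm3top1. The log-phase lists of sen1, top1 and sen1rrm3top1 therefore stood far below the other 17 lists, of which the lowest was rrm3top2-1. At 32 °C it was 56.3% in WT, 99.0% in sen1, 72.8% in rrm3 and 90.9% in sen1rrm3. With top2-1 it was 67.3% in top2-1, 72.1% in sen1top2-1, 48.2% in rrm3top2-1 and 53.4% in sen1rrm3top2-1.

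**Figure D1:**
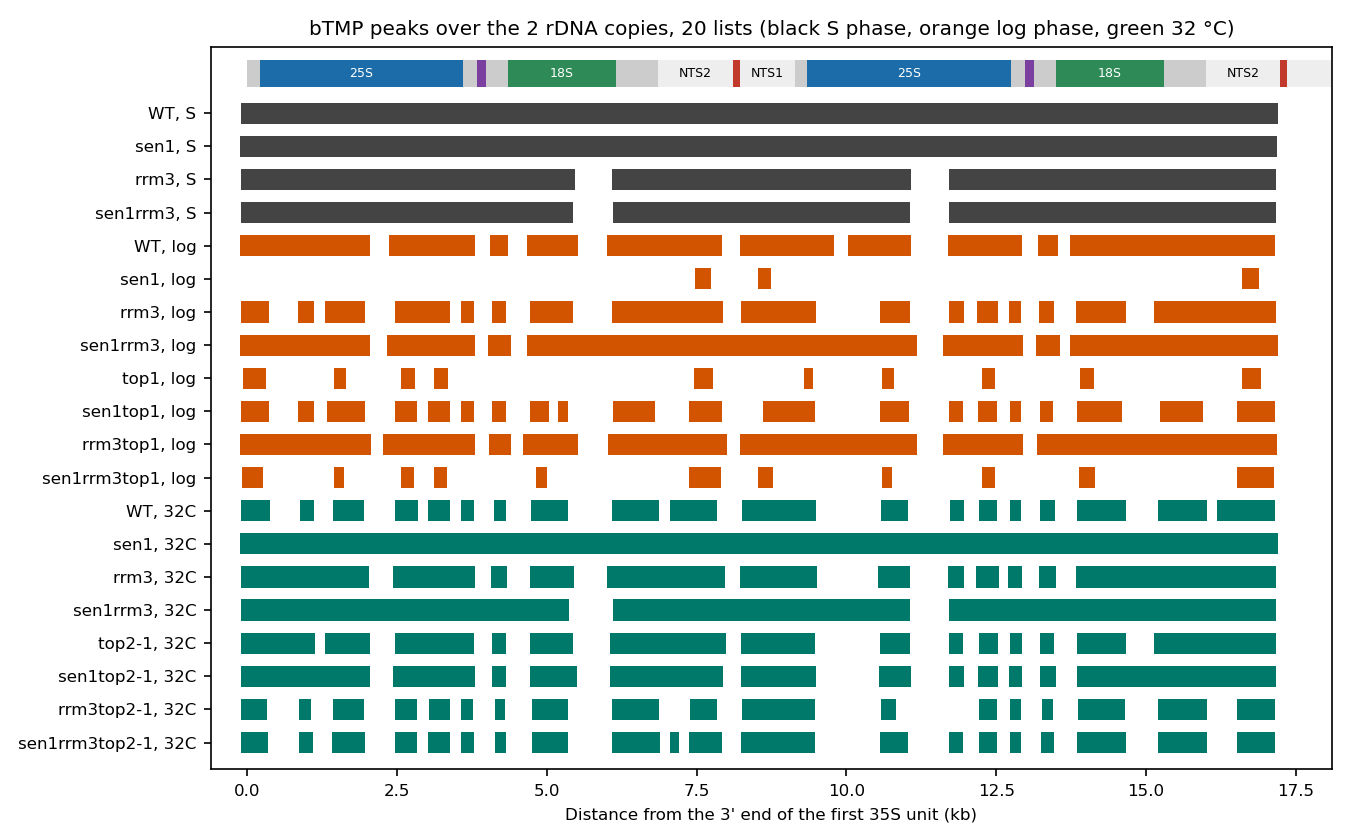
Each row is 1 bTMP list and each block is a deposited peak, placed by its distance in kb from the 3' end of the first 35S unit. The top row shows 25S (blue), 5.8S (purple), 18S (green), 5S (red), transcribed spacers (dark grey) and non-transcribed spacers (light grey); the log-phase sen1 row holds 3 peaks, and 3 rows are a single unbroken peak.

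In 17 of the 20 full bTMP lists the rDNA had more of its length under peaks than any stretch of equal length elsewhere. The nuclear genome was divided into 686 other stretches of 17357 bp, and in those 17 lists none reached the rDNA. In log-phase WT the other stretches had a median of 7.73% and a highest value of 28.0%. In log-phase sen1 the order was turned, with 590 of the 686 stretches at or above the rDNA and a median of 8.51%. In top1 186 stretches and in sen1rrm3top1 70 stretches were at or above it. In 10 of the 20 lists the widest peak of the entire list lay in the rDNA.

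**Figure D2:**
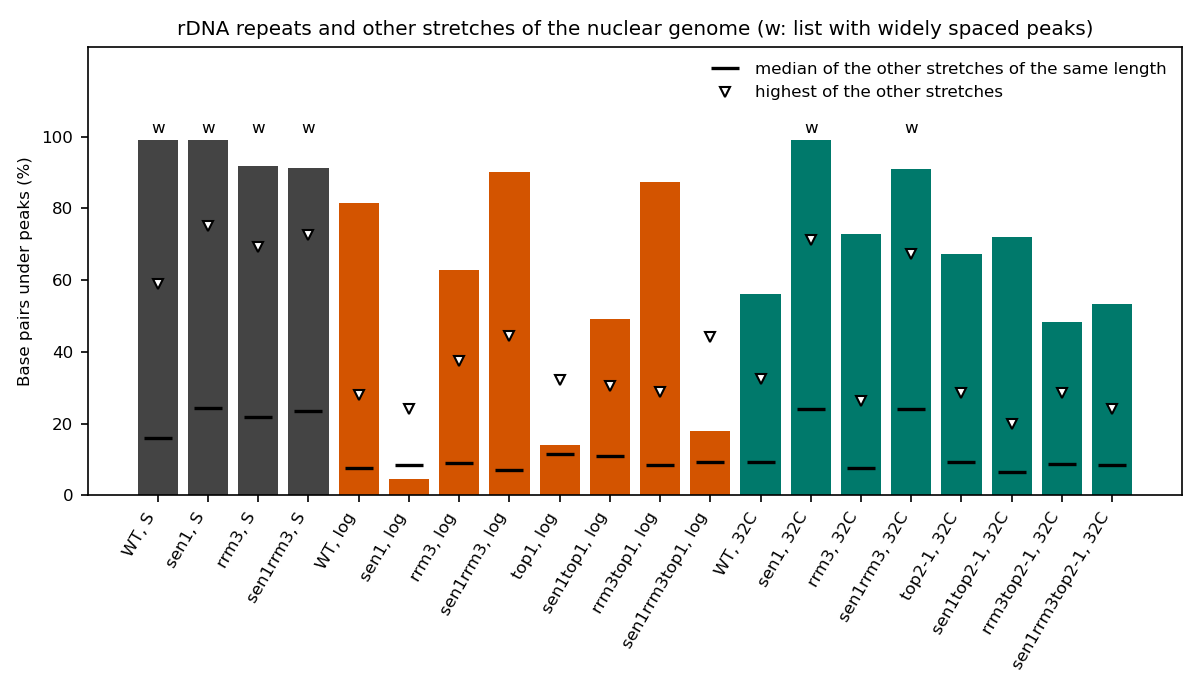
Bars give the percentage of the rDNA repeats under peaks in each bTMP list, dashes the median and triangles the highest of 686 other stretches of equal length. The bar exceeds the triangle in 17 lists and falls under it in the log-phase sen1, top1 and sen1rrm3top1 lists; w marks the 6 widely spaced lists.

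In log phase, the rDNA of WT carried 10 peaks and that of sen1 carried 3. The 10 WT peaks had scores of 1.39 to 2.12, and their median exceeded 75.2% of the peaks of that list; the score is the authors' own value for a peak and was used here only for ranks within a list. The 3 sen1 peaks had scores of 1.03, 1.11 and 1.05 and were at the very bottom of their list, exceeding at most 0.0528% of its peaks. They lay at chromosome XII 459043 to 459323 and 468179 to 468461, at matching places of NTS2 in the 2 copies, and at 460101 to 460323 in NTS1. Peaks took up 8.34% of the nuclear genome in WT and 8.82% in sen1, and relative to this the rDNA was at 9.78 times the genome in WT and 0.514 times in sen1.

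Within that contrast, the 25S gene, the large-subunit rRNA, went from 90.8% in WT to 0% in sen1 in the first copy and from 75.1% to 0% in the second. The 18S gene, the small-subunit rRNA, went from 55.2% to 0% and from 88.5% to 0%. These 4 genes were lower by at least 25 percentage points, the limit used throughout, and 2.83% of all nuclear genes were lower by that much in the same pair. The 5.8S genes and the 6 copies of the 5S gene were at 0% in both lists. ETS1 and ETS2 were at 100% in WT and 0% in sen1 in each copy, while in sen1 NTS2 was at 22.6% and 22.8% and NTS1 at 24.4%.

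The top1 and sen1rrm3top1 lists had the same kind of sparse, low-ranked peaks as log-phase sen1. The top1 list had 10 rDNA peaks with scores of 1.11 to 1.32, and the sen1rrm3top1 list 11 with scores of 1.10 to 1.42. In top1 the 25S genes were at 23.1% and 15.7%, and in sen1rrm3top1 at 19.7% and 11.4%. Both ETS1 copies were at 0% in these 2 lists. In log-phase sen1rrm3, 7 rDNA peaks with scores of 2.17 to 2.44 exceeded 85.6% to 94.2% of their list, and the widest was 6510 bp.

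Peaks recurred at the same positions across strains and conditions. The base pairs under a peak in all 20 bTMP lists came to 564 bp, made of 281 bp and 283 bp in the NTS2 of the 2 copies. These stretches are the NTS2 peaks of log-phase sen1 themselves. Their extent was thus set by that list alone, one of the selecting contrast, through peaks at the bottom of its ranking. They began 611 bp and 610 bp upstream of the 35S start and ended 353 bp and 352 bp short of the 5S gene. At the 3' end of the first 35S unit, ETS2 was fully covered in 19 of 20 lists. The 5.8S genes were at 0% in all 14 narrowly spaced lists. That gap ran over 237 bp in the first copy and 241 bp in the second, from the end of ITS2 into ITS1. In all 6 widely spaced lists the 5.8S genes were at 100%. Those lists hold no gap under 591 bp, so a gap of this length could not appear in them. Within the 25S gene, a gap of 277 bp in the first copy and 430 bp in the second was covered in at most 1 narrowly spaced list. The same held for gaps of 264 bp and 475 bp in the first 18S gene and of 166 bp in the second. It also held for the end of NTS2 and the 5S gene in both copies.

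**Figure D3:**
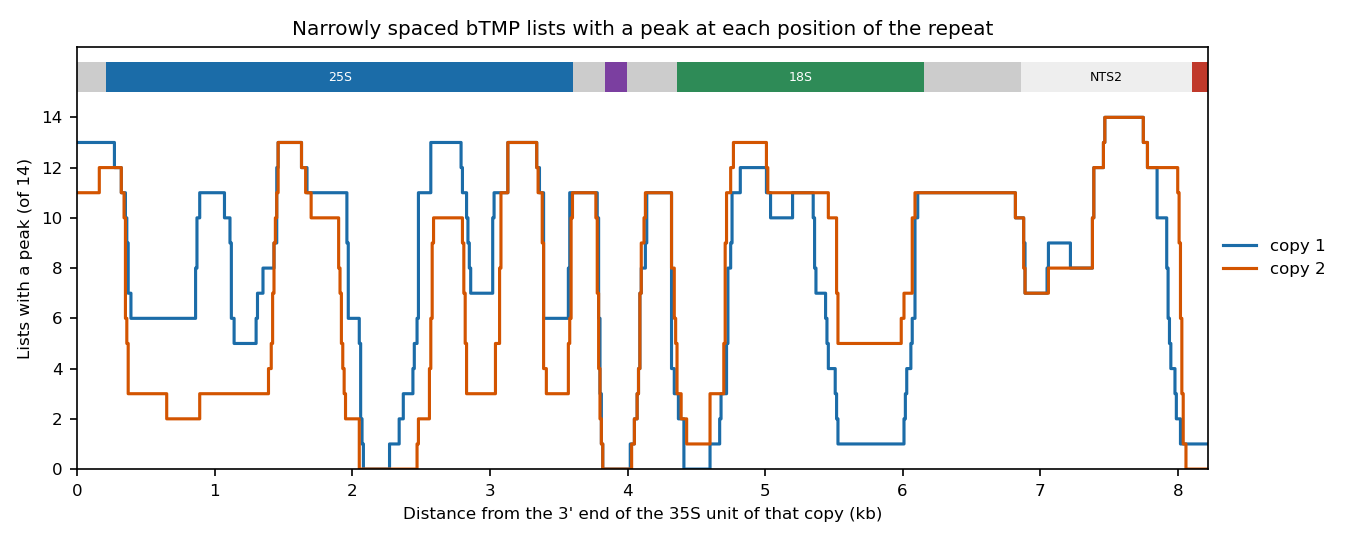
The number of the 14 narrowly spaced bTMP lists with a peak at each position of the repeat, against the distance in kb from the 3' end of the 35S unit of that copy, for copy 1 (blue) and copy 2 (orange). Both lines reach 14 in NTS2 and fall to 0 within the 25S gene and over the 5.8S gene (purple).

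The 2 copies of the repeat did not give identical peaks. Over the 8220 bp that both copies have in the assembly, they were in the same state, covered or not, at 70.8% to 99.98% of positions, with a median of 87.3%. Cover was higher in the first copy in 17 of the 20 lists and in the second in 3. RDN25-1 exceeded RDN25-2 in 13 of the 14 narrowly spaced lists, and RDN18-2 exceeded RDN18-1 in 13 of 14. How reads that match both copies were placed is not known from the labels, so these differences cannot be told apart from read placement.

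The outer edges of the rDNA peaks were steady. Apart from log-phase sen1, the first peak began 58 to 115 bp outside the 3' end of the first 35S unit, at positions 451460 to 451517. The last peak ended at 468484 to 468772 in the same lists, 41 to 329 bp before the second 5S gene, RDN5-2. In log-phase sen1 it ended at 468461, 352 bp before that gene. A single peak of 17293 bp, 17293 bp and 17302 bp spanned the entire distance in S-phase WT, S-phase sen1 and 32 °C sen1. In S-phase rrm3, S-phase sen1rrm3 and 32 °C sen1rrm3 the cover was split into 3 peaks. The gaps lay in the first 18S gene, at 65.6%, 63.2% and 58.8%, and in the second 25S gene, at 81.4%, 81.0% and 80.7%. With peaks closer than 650 bp joined, cover of the repeats was 98.9% in S-phase rrm3 and 95.1% in S-phase sen1rrm3.

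The 5S gene inside the repeats, RDN5-1, lay in a gap of most narrowly spaced lists. It was at 100% in the 6 widely spaced lists, which hold no gap under 591 bp and so could not show a shorter one. It was also at 100% in log-phase sen1rrm3, and at 0% to 0.826% in the other 13. In 9 of those 13 a peak began within 0 to 33 bp past the end of the gene, at 459796 to 459829, in NTS1. On its other side the nearest peak ended 89 to 352 bp before the gene, with a median of 180 bp. RDN5-2, RDN5-3 and RDN5-5 were at 0% in all 20 bTMP lists. RDN5-4 was at 100% in S-phase WT, S-phase sen1 and 32 °C sen1 and at 0% in the other 17 lists, and RDN5-6 was at 47.9%, 19.0% and 26.4% in the same 3.

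The sen1 mutation was compared over pairs of lists that differ in sen1 alone. In log phase without top1, the difference in cover was -76.99 points from WT and 27.3 points on rrm3. In log phase with top1 it was 35.02 points on top1 and -69.4 points on rrm3top1. Thus, in the full lists, the sign of the sen1 difference changed with rrm3 both with and without top1, in opposite senses. No replicate bears on it. With lists cut to equal length by score, top1 and sen1top1 were both at 0%, so the difference on top1 was then gone. On rrm3, 5 rRNA genes were higher by 25 points, against 1.14% of all genes. RDN25-1 went from 60.3% to 91.8%, RDN18-1 from 44.1% to 85.4% and RDN5-1 from 0% to 100%. On top1, 3 rRNA genes were higher, against 2.22% of all genes, among them RDN18-1, from 0% to 28.5%. On rrm3top1, 4 were lower, against 3.27% of all genes, with RDN25-1 at 94.3% and 19.7%.

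In S phase the sen1 differences were -0.07 points from WT and -0.33 points on rrm3. S-phase WT and sen1 each had 1 unbroken peak, at 99.1% and 99.0% cover, so cover there had almost no room to rise. By score, that peak exceeded 14.003% of the WT list and 45.5% of the sen1 list. The median rDNA peak exceeded 22.5% of the rrm3 list and 24.9% of the sen1rrm3 list. These differences in rank were not tested. At 32 °C cover was 42.8 points higher in sen1 than in WT and 18.1 points higher on rrm3, and both pairs join lists of different spacing. In the WT pair 9 rRNA genes were higher, beside 28.6% of all genes, and on rrm3 4 were higher, beside 27.6%, so large shares of all genes were higher in the same pairs. On top2-1 and rrm3top2-1, with the same spacing, the differences were 4.75 and 5.12 points.

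**Figure D4:**
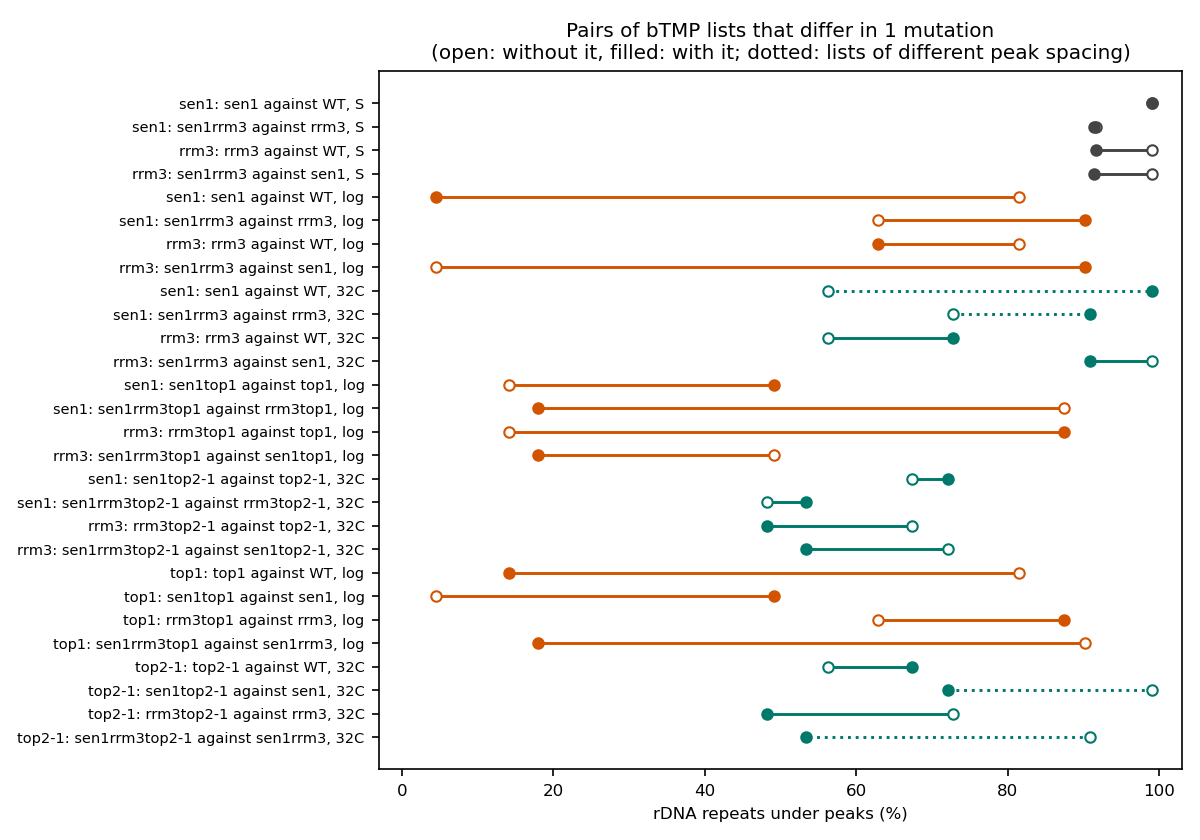
Each row is a pair of bTMP lists that differ in 1 mutation, with the percentage of the rDNA repeats under peaks without it (open) and with it (filled). Orange log-phase pairs run in both directions for sen1, rrm3 and top1, whereas the S-phase pairs (black) differ by -7.63 to -0.07 points; dotted lines join lists of different spacing.

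Over the 9 sen1 pairs other than log-phase sen1 against WT, the mean difference was 7.03 points with a standard deviation between pairs of 32.7, and 6 pairs were higher and 3 lower. Without the 2 pairs of mixed spacing, the mean was 0.342 points. The pairs share lists and are different strain backgrounds, not repeats. An exact permutation test over the signs of the pairs could not decide on single genes: at the smallest p of 9 pairs, 0.00391, an adjusted p under 0.05 needs 503 of the 6431 genes at that value, and 8 of the 12 rRNA genes differed in at most 4 pairs. The rRNA genes are therefore given by their values. These gene values include the 2 pairs of mixed spacing, both from 32 °C. RDN5-1 had the largest mean difference of the rRNA genes, 33.2 points with a standard deviation of 50.1, higher in 3 pairs, lower in 1 and equal in 5. Of the 3 higher pairs, 2 were those of mixed spacing, with RDN5-1 at 0% and 100% in each. RDN25-1 and RDN18-1 differed by means of 6.38 and 10.3 points with standard deviations of 34.9 and 31.9, each higher in 6 pairs. In the pairs of mixed spacing RDN25-1 went from 50.3% to 100% on WT and from 88.4% to 100% on rrm3. RDN18-1 went from 38.2% to 100% and from 49.5% to 58.8% in the same pairs.

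For rrm3, the differences in log phase were -18.7 points from WT, where 3 rRNA genes were lower against 1.97% of all genes, and 85.6 points on sen1. On top1 the difference was 73.3 points and on sen1top1 -31.2 points. In S phase it was -7.37 from WT and -7.63 on sen1. With peaks closer than 650 bp joined, S-phase cover was 99.1% in WT and 98.9% in rrm3. It was 99.0% in sen1 and 95.1% in sen1rrm3 with the same joining. At 32 °C the rrm3 difference was 16.5 from WT, -8.18 on sen1, -19.1 on top2-1 and -18.7 on sen1top2-1. Over the 8 pairs that use neither list of the selecting contrast, the mean was -0.288 points with a standard deviation of 32.8, 2 higher and 6 lower. With 8 pairs the same exact test is weaker still, since it allows a smallest p of 0.00781 and an adjusted p under 0.05 needs 1005 genes there. RDN18-1 differed by a mean of -9.77 points with a standard deviation of 33.7, lower in 6 pairs and higher in 2.

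The top1 differences were not uniform in direction. Cover of the repeats was 81.5% in WT and 14.1% in top1, with 4 rRNA genes lower against 1.93% of all genes. It also differed between sen1rrm3 at 90.1% and sen1rrm3top1 at 18.01%, with 5 lower against 2.05%. It was higher in sen1top1 than in sen1, with 4 rRNA genes higher against 5.89%, and in rrm3top1 than in rrm3, with 3 higher against 2.39%. The 4 pairs were not tested, since the smallest p they allow is 0.125. For top2-1, the differences were 11.1 points from WT and -24.5 points on rrm3, and -27.0 on sen1 and -37.5 on sen1rrm3, where the lists differ in spacing.

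Between conditions, S phase exceeded log phase by 17.6 points in WT, 94.5 in sen1, 28.9 in rrm3 and 1.24 in sen1rrm3. All 4 of these pairs join lists of different spacing, so condition and spacing cannot be told apart in the full lists. With peaks closer than 650 bp joined, log-phase and S-phase cover was 98.8% and 99.1% in WT and 4.53% and 99.0% in sen1. It was 89.0% and 98.9% in rrm3 and 99.1% and 95.1% in sen1rrm3, in the same order. The part of spacing was not tested. The 32 °C list differed from log phase by -25.3 points in WT and 9.97 in rrm3, with the same spacing. In sen1 and sen1rrm3 it differed by 94.5 and 0.73 points, with different spacing.

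Rpb1 was all but absent from the repeats. In S phase its peaks covered 0% of them in WT, sen1 and rrm3, and 1.98% in sen1rrm3, through 1 peak at 460319 to 460662 in NTS1. That peak exceeded 33.7% of its list by score. The 4 Rpb1 lists had 2016 to 2136 peaks, over 18.9% to 20.2% of the genome.

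Rpb1 did lie over the outer 5S genes in sen1 strains. These genes, RDN5-3 to RDN5-6, alternate with copies of the ASP3 asparaginase gene to the right of the repeats, so reads from near-identical units may be shared among them. RDN5-4 was at 0% in WT, 100% in sen1, 0% in rrm3 and 100% in sen1rrm3. RDN5-5 was at 0%, 52.9%, 0% and 39.5%, and RDN5-6 at 0%, 48.8%, 0% and 43.8%, in the same order. RDN5-3 was at 0% in all 4. Thus 3 rRNA genes were higher in sen1 than in WT, against 8.61% of all genes, and 3 in sen1rrm3 than in rrm3, against 6.44%. The sen1 peaks ran from 481687 to 482843, 485477 to 485759 and 489116 to 489407, and exceeded 75.7%, 66.6% and 69.8% of their list by score. The sen1rrm3 peaks ran from 481661 to 482848, 485467 to 485743 and 489122 to 489401, with edges within 26 bp of those of sen1. In the same lists, 2 Rpb1 peaks between RDN5-3 and RDN5-4 were present in all 4 lists, and this stretch was covered at 45.3% to 51.4%.

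**Figure D5:**
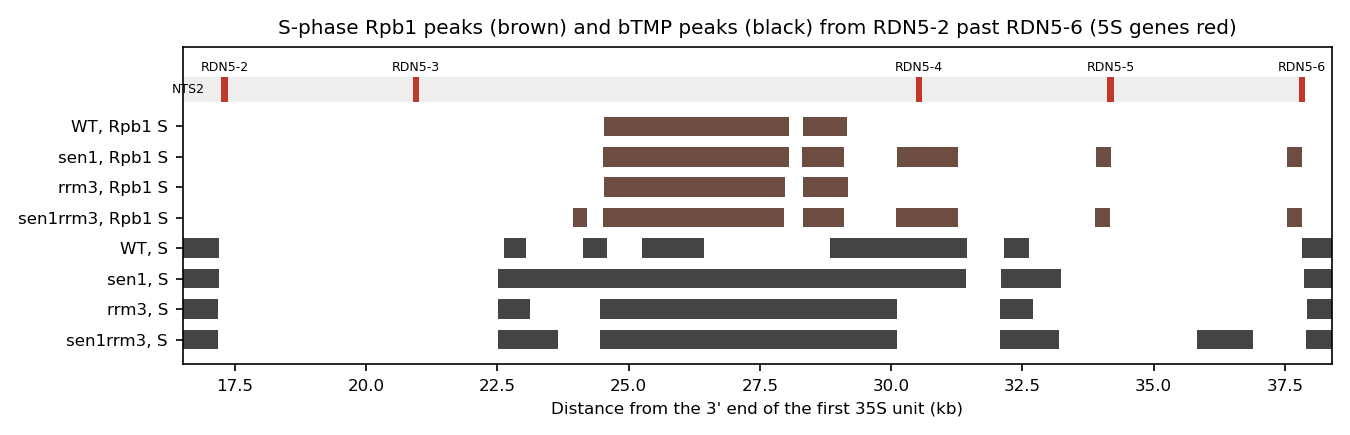
S-phase Rpb1 peaks (brown) and bTMP peaks (black) from RDN5-2 to beyond RDN5-6, against the distance in kb from the 3' end of the first 35S unit, with 5S genes in red. Rpb1 blocks touch RDN5-4, RDN5-5 and RDN5-6 in the sen1 and sen1rrm3 rows and not in the WT and rrm3 rows.

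Most genes next to the repeats had little of their cover. On the left, RNH203, a subunit of RNase H2, was at 0% in all 24 lists, and ACS2, an acetyl-CoA synthetase, was touched in 1 bTMP list. STM1, which encodes a ribosome-associated protein, was touched in all 20 bTMP lists with a median of 44.95%, and was at 33.8% in log-phase WT and 45.6% in log-phase sen1. YLR152C, PCD1 and GID11 were touched in 16, 8 and 6 lists. On the right, ASP3-1, YLR156W, YLR156C-A and ASP3-2 were at 0% in all 24 lists. The whole stretch between RDN5-2 and RDN5-3 was also at 0% in all 24. How reads from the near-identical units there were placed is not known, so these zeros cannot be told apart from read placement. YLR157W-D was touched in 3 bTMP lists, and YLR157C-B, a Ty element gene, in 18, with 0% in log-phase WT and 30.0% in log-phase sen1. Beyond RDN5-6, genes were looked at after their values were seen. YLR162W was at 100% in the 6 widely spaced lists and at 0% in the other 14, and RRT15 was at 100% in 2 widely spaced lists, S-phase and 32 °C sen1rrm3, and at 0% in the other 18. A stretch of 476 bp between YLR162W and RRT15 was touched in 19 of 20 bTMP lists at 57.1% to 100% and was at 0% in log-phase sen1.

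Genes that make, process or guard rRNA showed no common change in cover. Of 61 such genes, 3 were higher and 1 lower by 25 points in log-phase sen1 than in WT, with a median difference of 0, where 4.35% of all genes were higher and 2.83% lower. RPA14, an RNA polymerase I subunit, went from 57.005% to 100%, and RPB10, a subunit common to the nuclear polymerases, from 73.7% to 0%. TFC7, of the RNA polymerase III factor TFIIIC, went from 0% to 26.0%, and TOP1 from 14.3% to 44.2%. None of the 10 initiation genes, the 11 barrier and silencing genes or the 9 processing genes passed in that pair.

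In S-phase Rpb1, 5 of the 61 genes were higher in sen1 than in WT and 3 lower, where 8.61% of all genes were higher and 4.59% lower. CSM1 and LRS4, which clamp rDNA at the nuclear edge, went from 56.7% to 100% and from 0% to 26.8%. RNT1, the RNase III that cuts the 35S transcript, went from 67.5% to 96.8%, RAT1, an exonuclease, from 9.86% to 52.2%, and RRM3 from 14.9% to 51.0%. UTP22 and UTP20, of the small-subunit processing machinery, went from 97.9% to 7.97% and from 62.7% to 19.9%. RRN11, of the RNA polymerase I core factor, went from 88.4% to 61.8%.

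SEN1 itself was at 1.72% in log-phase WT and 6.56% in log-phase sen1, and TOP2 at 0% and 8.98%. Among 4092 genes outside the repeats with a peak in at least 5 bTMP lists, cover ran most closely with that of the repeats over the 20 lists in MIN10 (Pearson's r of 0.83), YIL012W (0.79), YER188C-A (0.78), BSC4 (0.77) and CYB2 (0.77). MIN10 was at 62.9% in log-phase WT, 0% in sen1, 61.4% in top1 and 0% in sen1rrm3top1. CYB2, a lactate dehydrogenase, was at 19.1%, 0%, 13.6% and 14.5% in the same lists. These values describe the ranking and carry no test, since the lists share their processing and the 2 kinds of spacing run through them.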

How the data were processed

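Peak lists of 24 immunoprecipitates were used, each deposited by the authors as chromosome, start, end, name and score. The tools were Bowtie2, Picard, SAMtools and deepTools, without versions, per the submitters' processing notes. Not given in the sources used here are the peak caller with its settings, the build, and what the deposited score means. Lists were called per library. Genes came from the RefSeq R64 table, with no coordinates of it printed, and peak positions are counted from 1. The members, gene lists and limits were chosen with earlier results of these data known. Cover is the percentage of base pairs under peaks. A gene was counted where its cover differed by at least 25 points. Sign-flip tests ran over all 6431 nuclear genes with Benjamini-Hochberg adjustment, were tested on simulated data, and are not used for single genes, for the reasons given with the pairs. Named genes were all rRNA genes, the 6 nearest protein-coding genes on each side, pathway genes past 25 points in log-phase or Rpb1 sen1 against WT (up to 4 a list), the strain loci and the 5 genes most like the repeats. Alternatives used the upper 50% of peaks by score, lists of equal length, peaks closer than 650 bp joined, each copy alone, and the annotation moved by 50 bp. Mitochondrial peaks were left out. Python 3.11.15, numpy 2.4.6, pandas 2.3.3 and scipy 1.17.1 were used.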

Additional observations from a re-analysis of the deposited data

Results flagged for a closer look

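Effects of a mutation in log phase pointed in opposite directions in different strain backgrounds by at least 25 points in 8 cases. None of these differences between backgrounds was tested, since each list is 1 library, and several cases share lists. The sen1 difference was -76.99 points on WT and 27.3 on rrm3, which are 104.3 points apart, and 35.02 on top1, which is 112.0 points from that on WT. On rrm3top1 it was -69.4, which is 96.8 points from that on rrm3 and 104.5 from that on top1. The rrm3 difference was -31.2 on sen1top1, 116.8 points from that on sen1 and 104.5 from that on top1. The top1 difference was 44.6 on sen1, 112.0 points from that on WT and 116.8 from that on sen1rrm3. Each case includes at least 1 of the 3 full lists with the least cover of the repeats, sen1, top1 and sen1rrm3top1. With lists of equal length, these and sen1top1 were all at 0%. The sen1 difference on top1, the rrm3 difference on sen1top1 and the top1 difference on sen1 were then gone, and with them the cases that use them.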

How the results depend on the processing

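With the annotation moved by 50 bp either way, the difference between log-phase sen1 and WT was -77.3 and -76.7 points. It was -41.8 with the upper 50% of peaks by score, -50.8 with lists of equal length, -94.3 with peaks closer than 650 bp joined, -76.2 and -78.1 in the first and second copy alone, and -9.27 as a difference in relative coverage. The count of lower rRNA genes in this pair went from 4 to 7 with peaks joined. The median cover of the 20 bTMP lists was 0.631% with the upper 50% of peaks by score, where the 4 S-phase lists had none left in the repeats: in 13 lists the median rDNA peak scored below the median peak. The Rpb1 difference of 1.98 points in sen1rrm3 was 0 with the upper 50% of peaks and in either copy's window, which leaves NTS1 out, and its count of higher rRNA genes was 1 at a limit of 50 points. Leaving out each pair, the mean sen1 difference ran from 2.56 to 16.6 points, lowest without 32 °C sen1 against WT and highest without sen1rrm3top1 against rrm3top1. The mean rrm3 difference ran from -10.8, without rrm3top1 against top1, to 4.12, and it was -13.7 with lists of equal length, 0.189 with peaks joined and 0.125 in the second copy. Among log-phase pairs only, chosen after seeing the data, the means were -2.36 and 21.1, so neither mean has a settled sign. Causes were not tested. Samples could not be blocked by replicate number, because each group has 1 library; the pairs above join strains. Read depth is unknown and limits any comparison of list lengths.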

Other observations

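The mitochondrial rRNA genes, which lie on another high-copy molecule, differed in cover. The 15S gene was at 0% in all 20 bTMP lists. The 21S gene was touched in 10 of the 20 and was at 14.6% in log-phase sen1rrm3, the highest value. The log-phase sen1, top1 and sen1rrm3top1 lists, the 3 with the least cover of the nuclear repeats in the full lists, had no mitochondrial peak. Neither did sen1top1, top2-1 or S-phase WT, which had 49.2%, 67.3% and 99.1% of the nuclear repeats covered. Log-phase sen1rrm3 had 18 mitochondrial peaks, the most of any list.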
